A study of Mus musculus with 12 samples.

Results

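A set of 36 mouse genes of mitosis and of the G2/M transition was followed in transplanted breast tumours treated with radiotherapy, with a fibroblast-targeted immune agonist, with both or with neither. The members are cyclins and kinases that drive entry into mitosis, kinetochore and spindle checkpoint genes, mitotic kinesins, cytokinesis genes and the proliferation markers Mki67 and Top2a. They were found by symbol among the 56884 genes of the count tables, and 36 of 36 were present and passed the filter on low counts. The lowest count of a member in any library was 833, for Cdc25c.

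RNA was measured by strand-specific sequencing of 12 tumours of TS/A, a mouse mammary carcinoma line, mixed with cancer-associated fibroblasts (CAF), all labelled WT. The 4 groups of 3 tumours were a vehicle control labelled with no treatment, radiotherapy (RT), muFAP-4-1BBL, and radiotherapy with muFAP-4-1BBL (the combination). By its name, muFAP-4-1BBL directs the ligand of the T cell co-stimulatory receptor 4-1BB to fibroblast activation protein, a surface protein of tumour fibroblasts. The study asked how gene expression in the tumour differed between these conditions. Doses, harvest times, ages and the origin of each tumour from a separate animal were not given in the labels, so p-values measure only the spread between these 12 libraries.

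A cell enters mitosis when Cdk1, bound to cyclin B, is activated by Cdc25 phosphatases. Chromosomes then attach to the spindle through kinetochores, a checkpoint delays the anaphase-promoting complex until attachment is complete, and its activator Cdc20 then triggers separation and the destruction of cyclin B. The genes of this programme are transcribed mainly in G2 and M phase, under MuvB complexes with B-Myb and FoxM1, and their RNA is widely used to gauge proliferation in tumours. DNA damage from irradiation induces the Cdk inhibitor p21 through p53, which halts the cycle and represses the same genes through the DREAM complex.

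The control regions of these genes are known for 2 short elements, the cell cycle homology region (CHR) and the CCAAT box. RefSeq promoter windows on GRCm38.p6, running from 250 bases before to 50 bases after the start of transcription, were matched by symbol for 30 of 36 members. CHR letters, TTTGAA or TTCGAA on either strand, were present in 24 of the 30 (80.0%), against 21.7% of the 27025 genes with a window. They were found in 62.0% of 79 other mitosis genes and in 21.1% of 38 genes of the G1/S transition and DNA replication. CCAAT on either strand was present in 76.7% of the members and 41.1% of all genes, and both elements together in 70.0% and 8.61%. A match describes the letters only. Windows of 4 members are shown, each trimmed to 30 bases after the start, because Ccnb2, Cdc20 and Nusap1 recur in the results and Cdk1 is the kinase around which they act. Capitals mark CHR and CCAAT letters on either strand, ATTGG being CCAAT on the other strand, and each sequence reads 5′ to 3′ on the gene's strand. The windows are chr9:70421525-70421804 (minus strand), chr4:118437314-118437593 (minus strand), chr10:69352883-69353162 (minus strand) and chr2:119618048-119618327 (plus strand).
Ccnb2: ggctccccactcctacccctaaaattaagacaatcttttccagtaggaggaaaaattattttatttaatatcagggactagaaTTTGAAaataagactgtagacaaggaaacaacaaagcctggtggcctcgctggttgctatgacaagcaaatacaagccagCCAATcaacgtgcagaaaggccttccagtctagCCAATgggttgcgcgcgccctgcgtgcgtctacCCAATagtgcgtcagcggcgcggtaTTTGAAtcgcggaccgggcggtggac
Cdc20: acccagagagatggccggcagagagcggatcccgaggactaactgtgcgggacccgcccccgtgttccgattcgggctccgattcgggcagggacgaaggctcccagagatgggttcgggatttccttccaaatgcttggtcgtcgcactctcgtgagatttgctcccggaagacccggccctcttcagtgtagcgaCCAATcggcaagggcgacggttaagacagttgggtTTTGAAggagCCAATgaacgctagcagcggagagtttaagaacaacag
Cdk1: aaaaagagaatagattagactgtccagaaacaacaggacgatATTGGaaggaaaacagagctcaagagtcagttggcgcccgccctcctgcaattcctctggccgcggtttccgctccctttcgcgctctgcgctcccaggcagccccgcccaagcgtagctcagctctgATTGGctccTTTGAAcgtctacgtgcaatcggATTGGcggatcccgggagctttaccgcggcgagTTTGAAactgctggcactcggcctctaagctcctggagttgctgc
Nusap1: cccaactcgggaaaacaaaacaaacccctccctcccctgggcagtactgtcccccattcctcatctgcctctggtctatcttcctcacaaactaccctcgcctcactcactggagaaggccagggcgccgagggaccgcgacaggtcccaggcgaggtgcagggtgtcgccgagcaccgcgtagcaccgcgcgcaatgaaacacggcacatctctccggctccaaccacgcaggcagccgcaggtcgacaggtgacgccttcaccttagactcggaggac
Ccnb2 held 3 CCAAT boxes, at -87, -54 and -21 from the start and thus 33 bases apart, with CHR letters at -167 and 5. Cdc20 held a CHR at -18 between CCAAT boxes at -53 and -8. In Cdk1 the CHR letters stood at -71 and -15 and the ATTGG letters at -208, -80 and -48. Neither set of letters was in the Nusap1 window, which says only that they are absent from these bases.

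The libraries held 34076477 to 42067481 counts each. The tumours carried RNA of epithelial and fibroblast markers, and whether it came from the labelled TS/A cells and CAF was not tested. Krt8, an epithelial keratin, stood at 231 to 437 CPM (counts scaled to library size) over the 12 libraries and Col1a1, a fibroblast collagen, at 1896 to 3354 CPM, whereas the epithelial adhesion gene Epcam was at 0.0824 to 8.18 CPM and Cldn7 at 0 to 0.858 CPM. The 16 skeletal muscle markers summed to 6218 to 13940 CPM in the radiotherapy tumours and 59.0 to 2173 CPM in the other 9. Their part in the results was not tested. A fit with the muscle score as a covariate cannot decide it for the radiotherapy group, which the markers set apart without overlap. In that fit edgeR called 3 of all genes with radiotherapy alone, where 1709 passed without the score. The 13 called genes followed through it kept their sign, the log2 change of Pimreg moving from -0.71 to -0.97 and that of Cdkn1a from 1.69 to 1.56. Calls lost in that fit thus say nothing on their cause.

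Together the 36 genes took 0.446% ± 0.0299 (SD, n = 3) of the counts in control tumours, 0.397% ± 0.0969 after radiotherapy, 0.411% ± 0.0441 with muFAP-4-1BBL and 0.362% ± 0.0312 in the combination. In every group Top2a had the most reads. Per kilobase of exon, averaged over the 12 libraries, the highest levels were those of Top2a, the topoisomerase that untangles chromosomes (66.3 CPM per kb), Ccna2, the cyclin of S and G2 phase (51.3 CPM per kb), and Cdc20 (45.1 CPM per kb). The lowest were those of the kinetochore gene Ndc80 (5.64 CPM per kb), the phosphatase gene Cdc25c (6.21 CPM per kb) and the checkpoint kinase gene Ttk, also called Mps1 (7.26 CPM per kb). This order depends on the length used. Per kilobase of the longest coding transcript, a length chosen after seeing the data, Top2a and Ccna2 were again the highest, followed by Racgap1 (53.1 CPM per kb), and the lowest were Mad2l1 (8.34 CPM per kb), Kif4 (12.3 CPM per kb) and Ttk (12.4 CPM per kb), with Ndc80 at 16.6 CPM per kb.

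**Figure D1:**
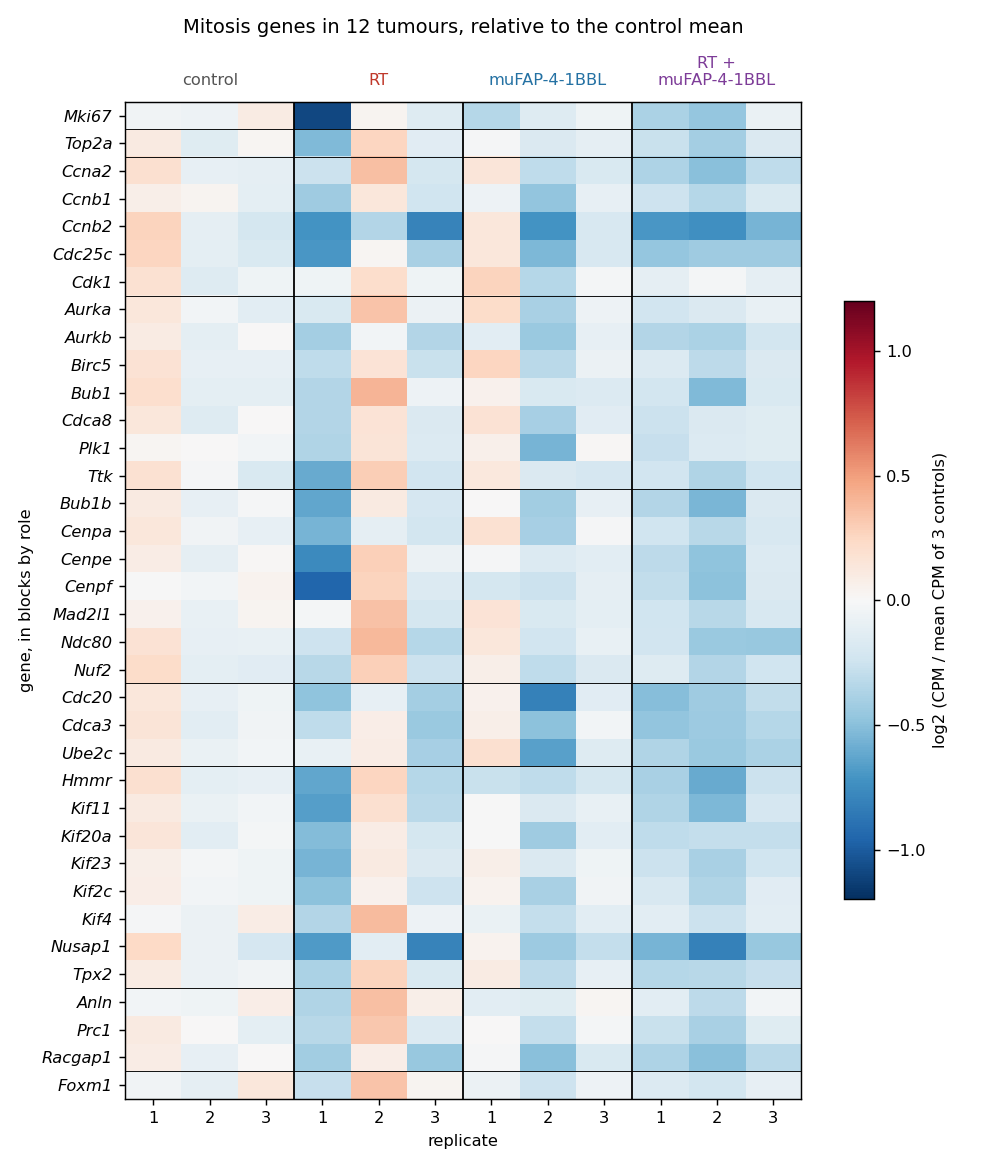
Log2 ratio of each of the 36 genes (vertical axis, in blocks by role) to its control mean in the 12 tumours (horizontal axis, replicates 1 to 3 of each group), as a colour scale. The 3 combination columns lie below the control mean for 36 of 36 genes, and control replicates 2 and 3 for 33 and 25. Replicate 2 of the radiotherapy group is the highest of its group for 36 of 36. Replicate 2 of the muFAP-4-1BBL group is the lowest of its group for 34.

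No single mitosis gene passed a test across the 4 groups. In a joint edgeR quasi-likelihood test of any difference among the groups, adjusted by Benjamini-Hochberg over the 17757 genes tested, 0 of 36 members passed the threshold of 0.05, against 11.3% of all genes. Without adjustment 2 members, Ccnb2 and Nusap1, had a p under 0.05, beside 27.2% of all genes. DESeq2 called these 2, beside 19.1% of the genes it tested. In bulk tumours fewer dividing cells and less mitotic RNA per cell cannot be told apart.

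With radiotherapy averaged over both settings, the mean of the 2 irradiated groups against the mean of the 2 others, 1 of 36 members fell and 0 rose. That is 2.78% of the members, where 3.55% of all genes were lower and 10.1% were called in either direction. Without adjustment 4 members had a p under 0.05, beside 25.1% of all genes. Of the 36 estimates 34 lay below 0, with a median log2 change of -0.16, where 49.6% of all genes lay below 0 and their median was 0.0026. No member was lower in all 6 irradiated tumours than in all 6 others, beside 1.37% of all genes. All 36 of the 95% intervals lay within 1 of 0 on the log2 scale, and 29 lay within 0.5.

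The gene that fell was Ccnb2, which encodes cyclin B2, a partner of Cdk1 in early mitosis (GRCm39 chromosome 9, 70314974 to 70328829, minus strand). Its level was 100.1, 77.0 and 71.7 CPM in the control tumours and 91.2, 50.4 and 72.5 CPM with muFAP-4-1BBL. It was 50.4, 65.0 and 47.6 CPM after radiotherapy and 51.1, 49.8 and 56.3 CPM in the combination. Each irradiated group lay wholly below the controls, while the second muFAP-4-1BBL tumour lay among the irradiated ones. The log2 change over both settings was -0.53 ± 0.14 (SE; 95% interval -0.83 to -0.22; edgeR adjusted p = 0.0349), a 0.694-fold level. The call was lost, at adjusted p = 0.059 to 0.0903, in 7 of 12 fits that each left out 1 library (replicate 1 of the control and of the muFAP-4-1BBL group, replicates 1 and 3 of radiotherapy, and any of the combination), with no filter on low counts (adjusted p = 0.0547) and with the muscle score in the model (log2 change -0.73, adjusted p = 0.139).

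Nusap1, a microtubule-binding protein of the spindle (chromosome 2, 119448779 to 119481725, plus strand), was next by p. Its CPM values were 98.1, 79.2 and 72.1 in control, 52.1, 76.1 and 47.7 after radiotherapy, 85.4, 61.5 and 68.1 with muFAP-4-1BBL and 56.4, 47.5 and 60.6 in the combination. The combination lay below every unirradiated tumour, whereas 1 of the 3 radiotherapy tumours overlapped the controls. The log2 change over both settings was -0.44 ± 0.13 (SE), and its edgeR adjusted p of 0.0527 missed the threshold that DESeq2 (adjusted p = 0.014) and edgeR with median-ratio size factors (adjusted p = 0.0491) passed. Cenpa, the histone H3 variant that marks centromeres, and Cdca3, an adaptor for ubiquitination at mitotic entry, followed at -0.24 ± 0.10 and -0.24 ± 0.11 (edgeR adjusted p = 0.174 and 0.197).

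The general markers of proliferation gave no call. Mki67, the gene of the Ki-67 antigen that coats mitotic chromosomes, was at 409, 402 and 451 CPM in control, 198, 430.1 and 377 CPM after radiotherapy, 332, 378 and 405 CPM with muFAP-4-1BBL and 323, 305 and 399 CPM in the combination. The first radiotherapy tumour was the lowest of the 12 and the second lay within the control range. Over both settings the log2 change of Mki67 was -0.22 ± 0.16, that of Top2a -0.14 ± 0.12 and that of Foxm1 0.01 ± 0.10 (edgeR adjusted p = 0.418, 0.5 and 0.969). Foxm1, the forkhead factor that activates many of the other members, was at 129, 123 and 146 CPM in control and 109, 168 and 136 CPM after radiotherapy. It was at 126, 111 and 127 CPM with muFAP-4-1BBL and 118, 114 and 124 CPM in the combination, so every group overlapped every other.

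Radiotherapy alone against control gave 0 of 36 members past the edgeR threshold, against 9.62% of all genes. Without adjustment 2 members, Ccnb2 and Nusap1, had a p under 0.05, beside 24.2% of all genes. DESeq2 called 1, Ccnb2, beside 13.1% of the genes it tested. The log2 changes of Ccnb2 and Nusap1 were -0.61 ± 0.20 and -0.50 ± 0.19 (edgeR adjusted p = 0.0778 and 0.117). Next by p came Aurkb, the kinase of the chromosomal passenger complex, at -0.25 ± 0.12, and Cenpa at -0.28 ± 0.15 (edgeR adjusted p = 0.232 and 0.267). Of the 36 estimates 29 lay below 0 (50.2% of all genes), with a median of -0.13, and 35 of the 36 intervals lay within 1 of 0. Mki67, Top2a and Foxm1 stood at -0.33 ± 0.22, -0.10 ± 0.16 and 0.06 ± 0.14. Cdk1 (0.04 ± 0.14) and Ccna2 (-0.01 ± 0.17) were close to no change, with 95% intervals of -0.27 to 0.35 and -0.38 to 0.36.

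Only 3 members, Ccnb2, Cdc20 and Cenpa, were lower in all 3 radiotherapy tumours than in all 3 controls, that is 8.33% of the members beside 11.1% of all genes. Cdc20, which activates the anaphase-promoting complex (chromosome 4, 118290098 to 118294549, minus strand), was at 109, 92.9 and 95.6 CPM in control and 71.1, 92.7 and 74.5 CPM after radiotherapy. With muFAP-4-1BBL it was at 103, 56.4 and 90.5 CPM and in the combination at 69.6, 73.7 and 81.0 CPM. The gap between the lowest control and the highest radiotherapy tumour was thus within 1 CPM, and the change of -0.32 ± 0.18 did not pass (edgeR adjusted p = 0.315).

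By the spread of the members, the radiotherapy tumours were the least alike. The median coefficient of variation of the members was 23.3% in this group, where the median of the 8404 genes over 20 CPM was 12.7%. It was 8.63% in control, 14.4% with muFAP-4-1BBL and 6.04% in the combination, where those genes had medians of 7.44%, 10.4% and 5.65%. The members moved together in this. Replicate 2 was the highest of the 3 for 36 of 36 members and the highest of all 12 tumours for 21, and replicate 1 was the lowest of the 3 for 29 and the lowest of all 12 for 17. The median of the members over their control means was 0.75 in replicate 1, 1.13 in replicate 2 and 0.862 in replicate 3. Cenpf, a large kinetochore protein gene, ran from 94.2 CPM in replicate 1 to 219 CPM in replicate 2 beside 178 to 188 CPM in the controls.

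Tumours of one group also differed in the balance of long and short transcripts. The measure was the median log2 ratio to the mean of the 12 libraries of 1376 genes with a longest coding transcript of 6 kb or more, minus that of 1721 genes of 2 kb or less, among genes over 20 CPM. It was -0.40, 0.04 and 0.17 in replicates 1 to 3 of radiotherapy, -0.31, 0.34 and 0.06 with muFAP-4-1BBL, -0.19 to 0.17 in control and -0.08 to 0.09 in the combination. Between the 9 longest and the 9 shortest members it was -0.18, 0.14 and 0.19 after radiotherapy, -0.30, 0.24 and -0.07 with muFAP-4-1BBL, -0.12 to 0.02 in control and -0.09 to 0.04 in the combination. Over all genes the lowest value was that of radiotherapy replicate 1, the tumour lowest of its group for 29 members. The highest was that of muFAP-4-1BBL replicate 2, the tumour lowest of its group for 34 members. The part of the length balance in the spread was not tested.

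The members' summary depended on these tumours. Without radiotherapy replicate 2 the median log2 change against control was -0.35, and without replicate 1 it was -0.0047. Over both settings, edgeR called 7 members lower without replicate 2, namely Ccnb2, Kif11, Kif23, Nusap1, Ndc80, Hmmr and Racgap1. It called 0 without replicate 1. Of all genes 9.95% and 11.3% were called in these fits, in either direction. Leaving out replicate 2 of the muFAP-4-1BBL group, which was the lowest of its group for 34 members, gave 4 lower. These were Ccnb2, Cdc20, Cenpa and Nusap1, in a fit where 8.09% of all genes were called in either direction.

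muFAP-4-1BBL alone against control gave 0 of 36 members past the edgeR threshold, against 0.00563% of all genes. Without adjustment 0 members had a p under 0.05, beside 5.17% of all genes, and DESeq2 called 0. All 36 estimates lay below 0, with a median of -0.12, where 47.8% of all genes lay below 0. All 36 intervals lay within 1 of 0 and 24 within 0.5. The smallest p-values were those of Aurkb (-0.22 ± 0.12), the cytokinesis regulator Racgap1 (-0.22 ± 0.15), the spindle protein gene Hmmr (-0.26 ± 0.18) and the cyclin B1 gene Ccnb1 (-0.20 ± 0.14), each with an edgeR adjusted p of 0.999. Mki67, Top2a and Foxm1 stood at -0.18 ± 0.22, -0.10 ± 0.16 and -0.12 ± 0.14. For 3 members, Cenpf, Kif4 and Hmmr, all 3 tumours lay below all 3 controls, or 8.33% beside 5.07% of all genes. Without replicate 2 the median of the 36 was -0.04.

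The combination against control gave 0 of 36 members past the edgeR threshold, against 7.91% of all genes. Without adjustment 10 members had a p under 0.05, beside 23.6% of all genes. DESeq2 called 2, Ccnb2 and Nusap1, beside 13% of the genes it tested. All 36 estimates lay below 0, with a median of -0.30, where 48.6% of all genes lay below 0. In 31 of 36 members (86.1%) every combination tumour lay below every control tumour, where 18.5% of all genes did so. The 5 exceptions were Cdk1, Aurka, Anln, Cdca8 and Foxm1. Members moved together within tumours, as in the radiotherapy group, so these counts are not independent observations. The 3 combination tumours were alike, with medians of 0.827, 0.764 and 0.877 of the control mean, and all 36 members lay below the control mean in each. Control replicate 1 was the highest control for 31 members, and 33 and 25 members lay below that mean in control replicates 2 and 3. Leaving out 1 library moved the median log2 change of the 36 between -0.369 and -0.237.

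Among the regulators of entry, Ccnb2 stood at -0.66 ± 0.20 and Cdc25c, the phosphatase that activates Cdk1, at -0.44 ± 0.19 (edgeR adjusted p = 0.0628 and 0.194). Ccna2 was at 259, 212 and 211 CPM in control and 176, 160.1 and 184 CPM in the combination, a change of -0.39 ± 0.17 (edgeR adjusted p = 0.183). Ccnb1 was lower by less, at -0.25 ± 0.14, and Cdk1 hardly at all, at -0.08 ± 0.14. Cdk1 had 136, 107 and 115 CPM in control and 111, 117 and 110.4 CPM in the combination, so the groups overlapped.

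The mitotic kinases and the passenger complex, 7 genes with Plk1, Aurka, Aurkb, Bub1, Ttk, Birc5 and Cdca8, had a median of -0.21. The most negative change among them was that of Aurkb (-0.32 ± 0.12, edgeR adjusted p = 0.142). Aurkb was at 72.7, 62.5 and 68.1 CPM in control and 53.2, 52.2 and 58.1 CPM in the combination. Plk1, the kinase that promotes centrosome maturation and mitotic entry, varied by only 1.9% among controls and was 78.8 ± 1.5 CPM there and 68.8 ± 3.3 CPM in the combination (SD, n = 3). Bub1, which recruits checkpoint proteins to kinetochores, stood at -0.30 ± 0.17, and Aurka, the spindle pole kinase, at -0.16 ± 0.16.

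The 7 kinetochore and checkpoint genes (Bub1b, Cenpa, Cenpe, Cenpf, Ndc80, Nuf2 and Mad2l1) ran from -0.37 for Ndc80 to -0.25 for Nuf2. The ubiquitination genes Cdc20, Ube2c and Cdca3 were close to one another at -0.41 ± 0.18, -0.40 ± 0.18 and -0.41 ± 0.16. Ube2c, the ubiquitin-conjugating enzyme of the anaphase-promoting complex, was at 116, 102 and 105 CPM in control and 83.7, 79.4 and 82.8 CPM in the combination. Among the 8 kinesin and spindle genes Nusap1 was the lowest at -0.60 ± 0.19 (edgeR adjusted p = 0.0714) and the chromokinesin gene Kif4 the nearest to 0 at -0.17 ± 0.15. The cytokinesis genes were Racgap1 at -0.39 ± 0.15 (edgeR adjusted p = 0.133), Prc1, which bundles midzone microtubules, at -0.26 ± 0.15, and Anln, an actin-binding protein of the contractile ring, at -0.15 ± 0.15. Mki67, Top2a and Foxm1 stood at -0.30 ± 0.22, -0.28 ± 0.16 and -0.16 ± 0.14.

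The count for the combination against control depended on the tumours in the fit. In a fit of the 6 control and combination tumours alone, edgeR called 20 of 36 members lower. It called 19.1% of the 16907 genes tested, in either direction. A count without adjustment is not given for this fit, because its share of all genes was not computed. The fit of 6 tumours differed from the one of 12 in its libraries, its estimate of the spread and the genes tested. Each member had a smaller standard error in it, while the estimates differed little. For Ube2c the change was -0.41 ± 0.08, beside -0.40 ± 0.18 in the fit of 12. For Kif20a it was -0.30 ± 0.08 beside -0.29 ± 0.15. Which of these differences moved the count was not tested. The 20 were Ccnb1, Ccnb2, Ccna2, Cdc25c, Aurkb, Bub1b, Cenpe, Cenpf, Ndc80, Mad2l1, Cdc20, Ube2c, Cdca3, Kif11, Kif20a, Kif23, Tpx2, Nusap1, Hmmr and Racgap1. Mki67, Top2a, Cdk1, Plk1 and Foxm1 were not among them.

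**Figure D2:**
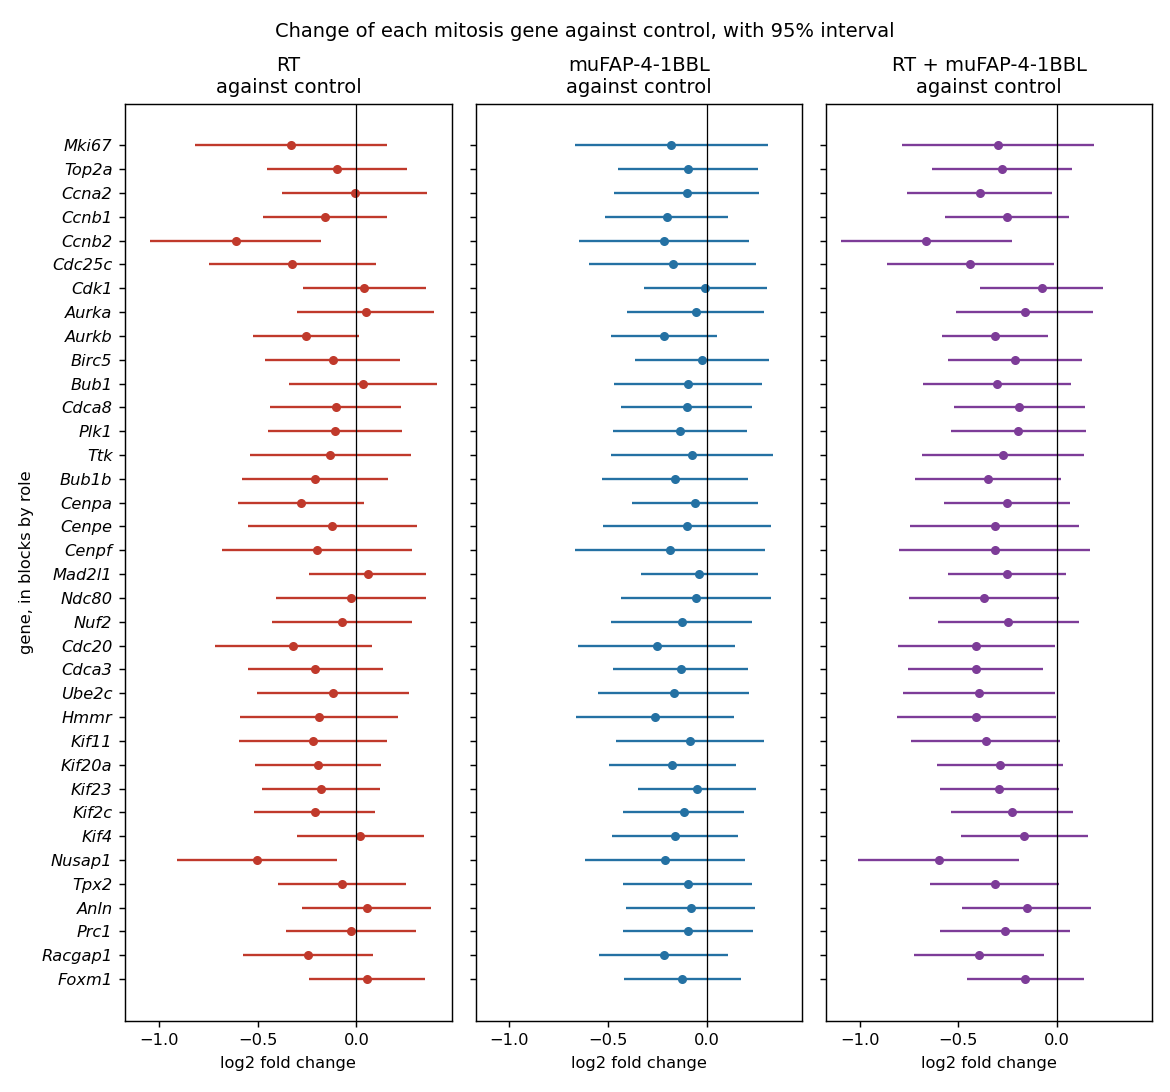
Log2 fold change of each of the 36 genes against control (horizontal axes) in 3 panels, radiotherapy, muFAP-4-1BBL and the combination, with points for edgeR estimates from the fit of 12 tumours and bars for 95% intervals. The median lies at -0.13, -0.12 and -0.30, and Ccnb2 and Nusap1 are the lowest with radiotherapy and in the combination. The 3 panels share the control tumours.

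Other RNA also differed between the combination and the controls. The 7 macrophage markers summed to 4104 to 5297 CPM in the combination and 2815 to 3653 CPM in control. Of the 7, 4 rose (Adgre1, Cd68, C1qa and C1qb), while Mrc1 had an estimate below 0 (-0.28). Of all genes 7.91% were called in this comparison, in either direction. The 7 T cell markers summed to 69.1 to 94.0 and 38.6 to 65.5 CPM, and 2 of 7 rose (Cd2 and Cd4). The 7 epithelial markers, mostly Krt8 and Krt18, summed to 332 to 391 and 407 to 498 CPM, but 4 of the 7 (Epcam, Krt19, Cdh1 and Cldn7) had estimates above 0, the median was 0.57 and 0 passed. The 6 adipocyte markers summed to 75.4 to 321 and 21.0 to 83.9 CPM, with 6 of 6 estimates above 0 and a median of 2.87, and 0 passed although 6 had an unadjusted p under 0.05. The 8 fibroblast markers summed to 7943 to 8440 CPM within a control range of 6634 to 9057 CPM. Their part in the lower mitosis values was not tested.

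Between the combination and each single treatment no member passed. Against radiotherapy alone edgeR called 0 of 36 (5.76% of all genes), with 2 at an unadjusted p under 0.05, Mad2l1 and Ccna2, beside 23% of all genes, and 0 by DESeq2. The median was -0.14 and 34 estimates lay below 0 (50.3% of all genes). Mad2l1, the checkpoint protein gene Mad2, stood at -0.31 ± 0.14, Ccna2 at -0.38 ± 0.17, Ndc80 at -0.34 ± 0.18 and Bub1 at -0.34 ± 0.17 (edgeR adjusted p = 0.194, 0.2, 0.269 and 0.27). Ccna2 was the 1 member below every radiotherapy tumour (2.78% of members, 13.4% of all genes), since the radiotherapy tumours had 190, 292 and 196 CPM. Mki67, Top2a and Foxm1 stood at 0.03 ± 0.22, -0.18 ± 0.16 and -0.22 ± 0.14. Without radiotherapy replicate 2 the median was 0.04.

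Against muFAP-4-1BBL alone edgeR called 0 of 36 (0.946% of all genes), with 1, Ccnb2, at an unadjusted p under 0.05, beside 13.5% of all genes, and 0 by DESeq2. All 36 estimates lay below 0 (49.9% of all genes), with a median of -0.18. Ccnb2, Nusap1, Ndc80 and Cdca3 stood at -0.45 ± 0.20, -0.39 ± 0.19, -0.31 ± 0.17 and -0.28 ± 0.16 (edgeR adjusted p = 0.351, 0.393, 0.475 and 0.481). In 8 members the combination lay below every muFAP-4-1BBL tumour (22.2%; 10.9% of all genes), namely Ccna2, Bub1, Cenpe, Kif11, Kif23, Nusap1, Ttk and Mad2l1. Mki67, Top2a and Foxm1 stood at -0.12 ± 0.22, -0.18 ± 0.16 and -0.04 ± 0.14.

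Whether the change with radiotherapy differed with and without the agonist was tested by the interaction of the 2 treatments. edgeR called 0 members (0.152% of all genes), 0 had an unadjusted p under 0.05 (14.1% of all genes), and DESeq2 called 0. Below 0 lay 20 of 36 estimates (49.9% of all genes), with a median of -0.05. The smallest p-values were those of Mad2l1 (-0.27 ± 0.19), Ccna2 (-0.28 ± 0.24), Ndc80 (-0.29 ± 0.25) and Bub1 (-0.24 ± 0.24, edgeR adjusted p = 0.574, 0.656, 0.663 and 0.717). Intervals were wide, 3 of 36 lying within 0.5 of 0, and Mki67 ran from -0.48 to 0.90. Top2a and Foxm1 stood at -0.09 ± 0.23 and -0.09 ± 0.19.

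Few of the mitosis genes outside the 36 passed. Of 96 others, edgeR called 4 lower and 0 higher over both radiotherapy settings (4.17%, beside 3.55% of all genes called lower). These were Pimreg, a mitotic regulator that interacts with PICALM (-0.53 ± 0.13), Cenpt of the inner kinetochore (-0.34 ± 0.09), Depdc1b (-0.56 ± 0.15) and the phosphatase gene Cdkn3, which acts on Cdk1 and Cdk2 (-0.52 ± 0.14; edgeR adjusted p = 0.022, 0.033, 0.0335 and 0.0376). Pimreg was at 67.4, 51.2 and 55.4 CPM in control, 31.8, 43.7 and 31.1 CPM after radiotherapy, 56.4, 34.8 and 50.3 CPM with muFAP-4-1BBL and 38.7, 34.9 and 37.4 CPM in the combination. As with Ccnb2, both irradiated groups lay below the controls and 1 muFAP-4-1BBL tumour lay among them. The median of the 96 was -0.09 and 76 lay below 0 (49.6% of all genes). With radiotherapy alone Pimreg (-0.71 ± 0.18) and Depdc1b (-0.75 ± 0.21) fell and the kinetochore genes Zw10 (0.32 ± 0.09) and Zwint (0.34 ± 0.10) rose, and in the combination 1 of 96 passed, Pimreg (-0.65 ± 0.18; edgeR adjusted p = 0.0452). Leaving out 1 library ended the calls over both settings in 3 of 12 fits for Pimreg, 8 for Cenpt, 6 for Depdc1b and 10 for Cdkn3, at adjusted p up to 0.0941. With radiotherapy alone it ended those of Zw10 in 11 fits, Zwint in 10, Depdc1b in 9 and Pimreg in 4 (adjusted p up to 0.211), and in the combination that of Pimreg in 7 (adjusted p up to 0.159). With the muscle score in the model the call of Pimreg in the combination was kept, and 0 of the 96 genes passed with radiotherapy alone or over both settings.

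Genes of the G1/S transition and DNA replication lay mostly on the other side of 0 over both settings and with radiotherapy alone, but not in every comparison. Over both settings 45 of 50 estimates were above 0, with a median of 0.10, where 49.6% of all genes lay below 0. Of the 50, 1 passed (2%, beside 10.1% of all genes). It was Ccne1, the gene of cyclin E1 that with Cdk2 starts S phase. Ccne1 was at 9.14 to 12.2 CPM in control, 9.80 to 11.3 CPM with muFAP-4-1BBL, 14.3 to 18.1 CPM after radiotherapy and 14.2 to 15.3 CPM in the combination, with no overlap between irradiated and other tumours (0.52 ± 0.09; edgeR adjusted p = 0.00576). With radiotherapy alone 43 of 50 lay above 0 and 3 rose (6%, beside 9.62% of all genes called in either direction). They were Ccne1 (0.56 ± 0.13), the ribonucleotide reductase gene Rrm2 (0.51 ± 0.13) and the replication initiation gene Mcm10 (0.43 ± 0.12). In the combination against control 31 of 50 lay above 0, with a median of 0.05 and a smallest edgeR adjusted p of 0.0586. Against radiotherapy alone 42 of 50 lay below 0 in the combination, with a median of -0.11, and against muFAP-4-1BBL alone 36 lay above 0. With muFAP-4-1BBL against control 27 of 50 lay below 0. Leaving out 1 library kept the call of Ccne1 over both settings in 12 of 12 fits, while with radiotherapy alone it ended the calls of Ccne1, Rrm2 and Mcm10 in 3, 4 and 10 fits. With the muscle score in the model 0 of the 50 passed in either comparison, Ccne1 standing at 0.60 over both settings (adjusted p = 0.107) and 0.69 with radiotherapy alone (adjusted p = 0.281).

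Within each tumour the mean log2 CPM of the 36 mitosis genes was set against that of the 50 G1/S genes. The difference was 1.00, 1.01 and 0.91 in the control tumours and 0.93, 0.71 and 0.90 with muFAP-4-1BBL. It was 0.50, 0.80 and 0.67 after radiotherapy and 0.65, 0.52 and 0.68 in the combination. Every irradiated tumour lay below every control, and the one overlap between irradiated and other tumours was that of radiotherapy replicate 2 with muFAP-4-1BBL replicate 2. Radiotherapy replicate 2, where the mitosis genes were highest, also had the highest G1/S mean of the 12 tumours (5.98). These means over chosen lists are a description and were not tested.

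**Figure D3:**
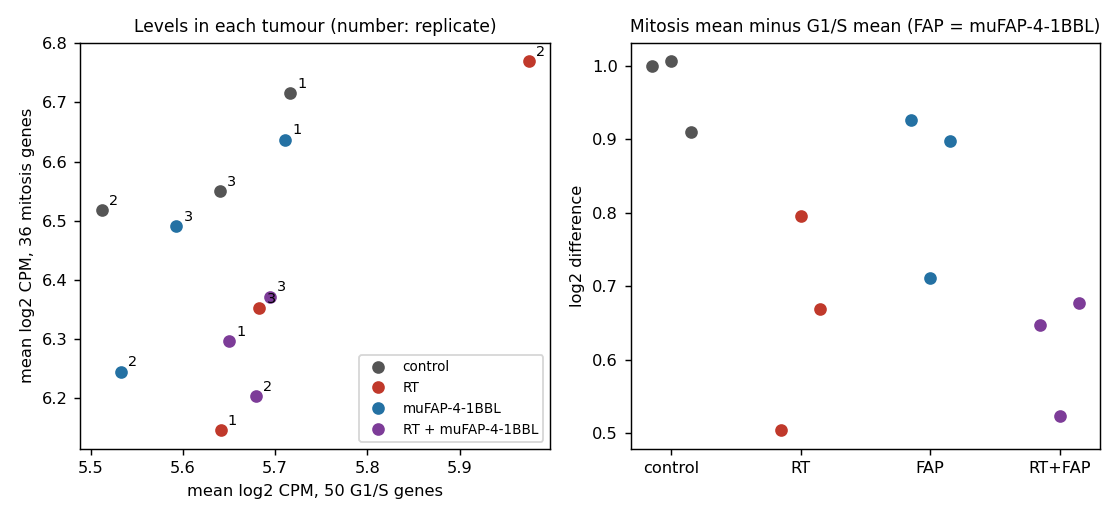
Left, mean log2 CPM of the 36 mitosis genes (vertical axis) against that of 50 G1/S genes (horizontal axis) in the 12 tumours, numbered by replicate and coloured by group. Right, the difference of the 2 means in each tumour by group, which is 0.91 to 1.01 in control and 0.50 to 0.80 in the irradiated tumours.

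Genes that hold back the cycle included several that changed with radiotherapy. Of 20 Cdk inhibitor and G2 brake genes, 6 rose and 4 fell over both settings (50% of the list, 10.1% of all genes). Cdkn1a, the gene of p21, was at 36.9, 47.4 and 41.3 CPM in control, 148, 112 and 144 CPM after radiotherapy, 55.5, 60.1 and 61.5 CPM with muFAP-4-1BBL and 137, 157 and 116 CPM in the combination. Irradiated and other tumours did not overlap, and the log2 change over both settings was 1.45 ± 0.10 (edgeR adjusted p = 5.37e-05). The change against control was 1.69 ± 0.14 with radiotherapy and 1.71 ± 0.14 in the combination, both past the threshold (edgeR adjusted p = 0.000144 and 0.000251). With muFAP-4-1BBL alone it was 0.50 ± 0.14 (edgeR adjusted p = 0.684), and between the combination and radiotherapy it was 0.02 ± 0.14. The p53 target Ccng1 (0.64 ± 0.07) and the stress-responsive polo kinase gene Plk3 (0.47 ± 0.09) also rose and Ccng2 fell (-0.73 ± 0.10) over both settings. With radiotherapy alone 5 of the 20 rose and 2 fell (35%, beside 9.62% of all genes). Among them were Ccng1 (0.95 ± 0.10), Plk2 (0.53 ± 0.08) and Ccng2 (-0.83 ± 0.15). In the combination 7 rose and 3 fell (50%, beside 7.91% of all genes). Btg2 (0.95 ± 0.14), Plk2 (0.41 ± 0.08) and Plk3 (0.65 ± 0.12) were among those that rose. Cdkn2c fell with radiotherapy alone (-0.53, edgeR adjusted p = 0.0418) and in the combination (-0.63, edgeR adjusted p = 0.0225). Over both settings Cdkn2c (-0.47, edgeR adjusted p = 0.0146) and Cdkn2b (-0.51, edgeR adjusted p = 0.0385) fell. Ccng1 was lower in the combination than with radiotherapy (-0.56 ± 0.10; edgeR adjusted p = 0.0128), the 1 gene of the list that differed there. Cdkn1a was higher in the combination than with muFAP-4-1BBL (1.21 ± 0.14; edgeR adjusted p = 0.0188). With muFAP-4-1BBL alone the smallest edgeR adjusted p of the list was 0.0535. With the muscle score in the model 0 of the 7 calls with radiotherapy alone remained, Cdkn1a standing at 1.56 (adjusted p = 0.0718), Ccng1 at 0.92 (adjusted p = 0.0958), Plk2 at 0.49 (adjusted p = 0.219) and Ccng2 at -0.73 (adjusted p = 0.283). Of the 10 calls over both settings 2 remained, Cdkn1a (1.37) and Ccng1 (0.62), and in the combination, where 10 of the list had passed, 6 did so in that fit. The lower Ccng1 of the combination against radiotherapy also lost its call there (adjusted p = 0.186) and without replicate 2 or 3 of the combination (adjusted p = 0.0601 and 0.0757). Against muFAP-4-1BBL the call of Cdkn1a was lost without replicate 1 of that group (adjusted p = 0.134), and in the combination against control those of Plk2 and Plk3 without control replicate 2 and combination replicate 2 (adjusted p = 0.0766 and 0.0525).

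Of 22 transcriptional regulators of the cell cycle 2 passed over both settings (9.09%, beside 10.1% of all genes). Tfdp2, a partner of E2F factors, fell (-0.38 ± 0.07, edgeR adjusted p = 0.00637). Mybl2, the gene of B-Myb, rose (0.40 ± 0.09, edgeR adjusted p = 0.0145). Mybl2 was at 40.2 to 47.2 CPM in control, 37.3 to 44.6 CPM with muFAP-4-1BBL, 48.1 to 66.5 CPM after radiotherapy and 49.3 to 55.4 CPM in the combination. Its change against control passed with radiotherapy (0.43 ± 0.12; edgeR adjusted p = 0.0462) and not in the combination (0.28 ± 0.12; edgeR adjusted p = 0.186), and the interaction test gave -0.07 ± 0.17 (edgeR adjusted p = 0.907). In the combination Tfdp2 fell (-0.41 ± 0.10) and the pocket protein gene Rbl2 rose (0.49 ± 0.13). The share of the list called was 9.09% there and with radiotherapy alone, beside 7.91% and 9.62% of all genes. Leaving out 1 library ended the call of Mybl2 with radiotherapy in 10 of 12 fits (adjusted p up to 0.191) and over both settings in 1, that without control replicate 2 (adjusted p = 0.0527). In the combination it ended the call of Tfdp2 in 5 fits and that of Rbl2 in 6 (adjusted p up to 0.124 and 0.155). With the muscle score in the model 0 of the 22 passed in any of these 3 comparisons.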

How the data were processed

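RNA of 12 tumours, 3 in each of 4 groups, was sequenced as stranded mRNA read pairs, per the labels' protocols. The deposited values are raw counts of fragments per gene, made by the authors with featureCounts 1.6.0, over GENCODE M33 exons on the reverse strand, per the file headers. Per the submitters' processing notes the build was GRCm39 and the tools included STAR 2.7.9a and FastQC 0.11.8, beside edgeR and limma. Because whole tumours were counted, RNA of all cells in them enters each value. Counting used the strand, so antisense neighbours were kept apart.

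Symbols came from GENCODE M21 by gene identifier, which named 51948 of 56884 genes holding no less than 99.0% of any library's counts. The tests used edgeR 4.0.16 under R 4.3.3. The function filterByExpr kept 17757 genes, libraries were scaled by TMM, and 1 model with 4 groups was fitted to all 12 libraries (8 residual degrees of freedom). Each contrast had a quasi-likelihood F test (robust), and p-values were adjusted over all tested genes by Benjamini-Hochberg, with a threshold of 0.05. Changes are log2 fold changes with standard errors. The scripts were tested on simulated data. CPM values are on the TMM scale, and the transcript length measure used library totals and GENCODE M21 transcripts.

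Depth was 34076477 to 42067481 counts a library, and no 2 libraries of a group agreed within sampling noise. Alternatives were DESeq2 1.42.0, median-ratio size factors (RLE), no filter on low counts, the replicate number as a block, a skeletal muscle score as covariate, the 2 compared groups alone, and each library left out in turn.

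The text gives the members with the smallest p in each comparison (all past the threshold, filled up to 4), Mki67, Top2a and Foxm1 throughout, and the 3 highest and 3 lowest per kb. From each other list up to 4 genes past the threshold are named, with Cdkn1a and Mybl2. Cdkn2c and Cdkn2b were added to these after their values were seen. The members and lists were chosen with earlier results of these data known, and other genes named for their values in single libraries (such as Cenpf) or described with their group were chosen after those values were seen, as was the length measure. Lin54 of the list of regulators was not matched. The markers of adipocytes (21.0 to 321 CPM summed) and keratinocytes (1.24 to 66.9 CPM summed) were read beside those in the text. Ages, doses, times and batches are not given in the sources used here.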

Additional observations from a re-analysis of the deposited data

Results flagged for a closer look

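Plk2, a polo-like kinase gene induced by stress and listed with the G2 brakes, was picked out because the test of the difference itself, the interaction of radiotherapy and muFAP-4-1BBL, passed. The log2 change with radiotherapy was -0.6964 with the agonist minus without it (SE 0.11; edgeR adjusted p = 0.0311). Plk2 was at 42.3, 39.5 and 40.5 CPM in control, 58.6, 55.2 and 62.7 CPM after radiotherapy, 59.9, 60.9 and 61.8 CPM with muFAP-4-1BBL and 54.3, 53.4 and 55.0 CPM in the combination. All 9 treated tumours lay above the controls, and the combination lay below both single treatments. DESeq2 gave an adjusted p of 6.58e-07, while the call was lost with the replicate block (log2 -0.70, adjusted p = 0.0644), with the muscle score in the model (log2 -0.66, adjusted p = 0.226) and in 9 of 12 fits without 1 library (log2 -0.72 to -0.67, adjusted p = 0.0549 to 0.132). Over all 12 such fits the change ran from -0.75 to -0.65.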

How the results depend on the processing

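Under the alternatives the members' median kept its sign in all comparisons but the interaction and the combination against radiotherapy, as given here, and no member was called higher. Shares in brackets are those of all genes tested, called in either direction. Members lower over both radiotherapy settings numbered 1 in the fit of all 12 libraries (10.1%), 2 with DESeq2 (13.9%) and 2 with RLE (10.1%). They numbered 0 with no filter (4.18%), 0 with the muscle score (0.822%) and 0 to 7 without 1 library (4.77% to 11.3%). With radiotherapy alone DESeq2 gave 1 (13.1%) and leaving out a library 0 to 1 (4.43% to 10.9%), with members' medians of -0.353 to -0.00471. For the combination against control DESeq2 gave 2 (13%), the 2 groups alone 20 (19.1%) and leaving out a library 0 to 3 (1.93% to 10.7%). For any difference DESeq2 gave 2 (19.1%) and leaving out a library 0 to 1 (5.64% to 13.6%). Over both settings DESeq2 called 13.9% of the 18251 genes it tested. The interaction median ran from -0.154 to 0.168 without 1 library, and that of the combination against radiotherapy from -0.28 to 0.0389.

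All-gene counts moved more. DESeq2 called 3606 genes for any difference (2002 in edgeR), 48 with muFAP-4-1BBL (1), 629 for the interaction (27), 2289 for the combination against control (1404), 754 against muFAP-4-1BBL (168) and 2025 against radiotherapy (1022). With the muscle score edgeR called 146 over both settings (1787), 3 with radiotherapy (1709), 2 with muFAP-4-1BBL, 893 and 1 for the combination against control and against radiotherapy, and 0 for the interaction. With no filter it called 9 with muFAP-4-1BBL and 102 for the interaction. The 2 groups alone gave 1064 with radiotherapy, 0 with muFAP-4-1BBL, 3223 for the combination against control and 269 against muFAP-4-1BBL. Without 1 library the ranges were 1027 to 2469 (any difference), 869 to 2046 (both settings), 805 to 1987 (radiotherapy), 0 to 5 (muFAP-4-1BBL), 351 to 1941, 70 to 2305 and 0 to 411 (the combination against control, radiotherapy and muFAP-4-1BBL) and 0 to 269 (interaction). The cause was not tested.

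Signs turned for small values. With the muscle score the Mybl2 interaction was 0.012 and Mki67 in the combination against radiotherapy -0.0063. Without 1 library Foxm1 ran from -0.093 to 0.080 over both settings and -0.13 to 0.20 with radiotherapy, and Top2a from -0.33 to 0.077 with radiotherapy. Against radiotherapy the combination ran from -0.11 to 0.13 for Cdkn1a, -0.24 to 0.24 for Mki67 and -0.36 to 0.022 for Top2a. The interaction ran from -0.24 to 0.067 for Foxm1, -0.059 to 0.42 for Mki67, -0.19 to 0.017 for Mybl2 and -0.26 to 0.12 for Top2a.

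The replicate block gave 9 interaction calls over all genes and left the count of members unchanged, Ccnb2 being called at an adjusted p of 0.0492. Samples share only a number: deviations of same-numbered libraries correlated at -0.344 to 0.432 over 18 pairs, 6 of them over 0.1, and 6 of 12 libraries correlated best with their own number. The lowest count of any member was 833, so precision was set mainly by 3 libraries a group and the spread between them.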
